A study of Homo sapiens with 4 samples.

Results

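A set of 10 genes of the piRNA pathway was followed in FaDu cells, an established line of squamous carcinoma of the hypopharynx: MAEL, GTSF1, PIWIL1, PIWIL2, PIWIL4, TDRD1, TDRD9, ASZ1, MOV10L1 and DDX4. They were picked out by gene symbol, and all 10 of 10 stood in the deposited table of 25548 gene symbols. FaDu cells in the Aza/TSA group received 5 µM 5-aza-2'-deoxycytidine (Aza), a cytidine analogue that depletes active DNA methyltransferase once built into DNA, on days 1 to 3, and 100 nM trichostatin A (TSA), which blocks histone deacetylases, on day 3. FaDu cells in the DMSO group received vehicle, which per the labels' protocols was DMSO for Aza and ethanol for TSA and which the sample label gives as DMSO only. Both groups are the same line, with no engineered allele named in the labels, and each was sequenced as 1 stranded mRNA library, so the differences below stand without replicates and without p-values. The second line of the series, UMSCC47, is not used, because the values in its columns did not match the gene on each row.

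The piRNA pathway is a small-RNA defence of the germ line. PIWI proteins, the germline branch of the Argonaute family, carry piRNAs to the transcripts of transposable elements, which are then cut or, in the nucleus, marked for DNA methylation. Around the PIWI proteins work helicases and nucleases that make piRNAs from long precursors, a scaffold on the outer mitochondrial membrane, and Tudor-domain proteins that bind methylated arginines of the PIWI proteins. Most of these genes are normally silent in epithelium outside the testis and ovary. Most roles given below were worked out in mice and flies.

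In the Aza/TSA library 4 of the 10 genes were at least 2-fold higher than in the DMSO library, and none was 2-fold lower. The same 4, GTSF1, MAEL, TDRD9 and TDRD1, were also switched on, which here means under 0.1 FPKM (fragments per kilobase of transcript, scaled to the size of the library) in the DMSO library and 1 FPKM or more in the Aza/TSA library. GTSF1 and MAEL are grouped here as PIWI partners and TDRD9 and TDRD1 as Tudor proteins, although TDRD9 is also a helicase. Whether the calls follow these roles was not tested. The 3 PIWI genes, the helicases DDX4 and MOV10L1 and the mitochondrial scaffold gene ASZ1 stayed under 1 FPKM in both libraries. Fold was taken on the log2(FPKM + 1) scale, where low genes appear to change less than they do, and calls were limited to genes with 1 FPKM or more in at least 1 of the libraries. Across all listed genes, 8.53% were called higher in this way and 2.76% lower, and 2.05% were switched on. Of the 9984 genes under 0.1 FPKM in the DMSO library, 5.25% were switched on, and 9 of the 10 members were among these 9984. In that class 1.55% of genes reached 10 FPKM, as GTSF1 and MAEL did. Of the 7 members listed at 0 in the DMSO library, 6 were above 0 and 3 reached 1 FPKM in the Aza/TSA library, beside 29.9% and 4.75% of all genes listed at 0 in DMSO. The median log2 change over all 10 members, called or not, was 0.83, against 0 over all genes of the table. All 4 called genes passed the 1 FPKM filter only through the Aza/TSA library, so once measured they had to be called higher. In these bulk libraries more cells that express a gene and more RNA per cell cannot be told apart.

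**Figure D1:**
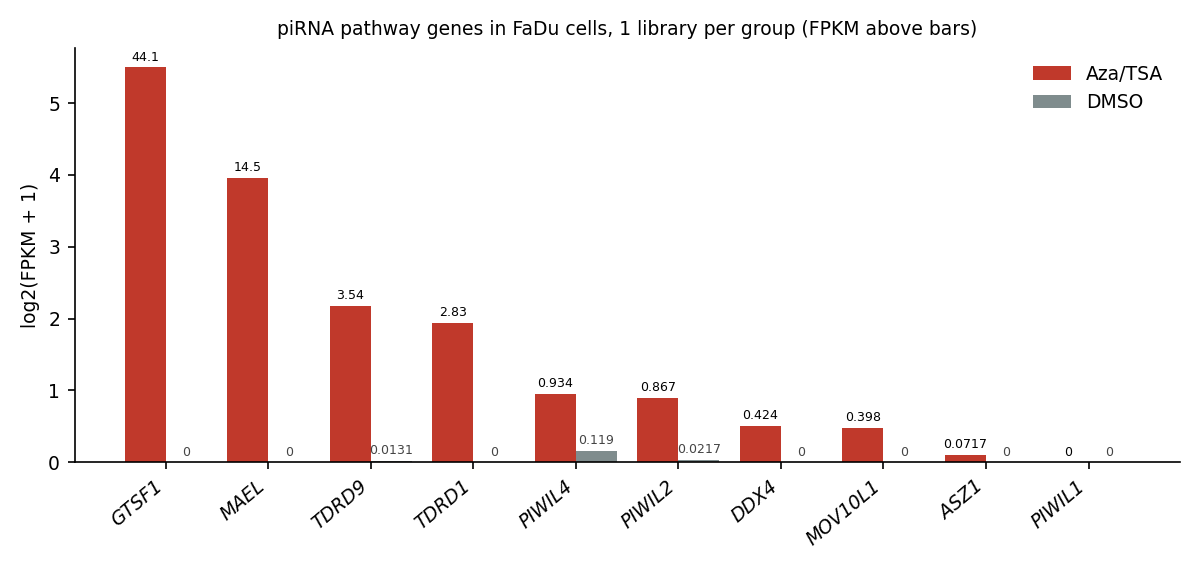
Levels of the 10 piRNA pathway genes in the Aza/TSA library (red) and the DMSO library (grey) of FaDu cells, as log2(FPKM + 1), with the FPKM printed above each bar and 1 library per group. Only GTSF1, MAEL, TDRD9 and TDRD1 reached 1 FPKM, from 2.83 to 44.1 FPKM in the Aza/TSA library, and PIWIL1 was listed at 0 in both.

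The sequence upstream of the start is shown for the 4 genes that were switched on, and for PIWIL1, which was not. CG is marked because DNA methyltransferase, which Aza depletes, methylates cytosines mainly in CG dinucleotides. Each runs 5′ to 3′ on the strand of the gene from 250 bases before the start to 50 bases after it, in RefSeq on GRCh38.p14, which is not the hg19 build of the FPKM table. Capitals mark CG. The positions are chr12:54473553-54473852 on the minus strand for GTSF1, and on the plus strand chr1:166989030-166989329 for MAEL, chr10:114179037-114179336 for TDRD1, chr14:103928206-103928505 for TDRD9 and chr12:130337637-130337936 for PIWIL1.
GTSF1: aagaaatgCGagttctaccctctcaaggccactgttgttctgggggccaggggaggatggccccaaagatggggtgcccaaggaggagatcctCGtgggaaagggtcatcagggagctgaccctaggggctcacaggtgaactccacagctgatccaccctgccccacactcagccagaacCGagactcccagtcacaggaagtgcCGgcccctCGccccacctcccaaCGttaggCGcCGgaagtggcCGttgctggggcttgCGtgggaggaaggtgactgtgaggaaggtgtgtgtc
MAEL: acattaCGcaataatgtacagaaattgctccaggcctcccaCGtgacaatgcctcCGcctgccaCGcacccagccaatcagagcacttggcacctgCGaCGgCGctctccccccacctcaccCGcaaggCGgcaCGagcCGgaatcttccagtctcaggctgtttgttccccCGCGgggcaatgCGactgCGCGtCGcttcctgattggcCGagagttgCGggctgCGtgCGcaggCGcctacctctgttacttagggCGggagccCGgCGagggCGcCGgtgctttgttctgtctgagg
TDRD1: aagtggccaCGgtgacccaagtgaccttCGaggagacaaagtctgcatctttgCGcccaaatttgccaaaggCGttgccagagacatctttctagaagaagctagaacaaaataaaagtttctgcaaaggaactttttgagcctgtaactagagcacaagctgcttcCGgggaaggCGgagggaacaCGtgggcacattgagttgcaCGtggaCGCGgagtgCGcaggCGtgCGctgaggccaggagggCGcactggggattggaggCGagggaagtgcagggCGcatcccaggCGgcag
TDRD9: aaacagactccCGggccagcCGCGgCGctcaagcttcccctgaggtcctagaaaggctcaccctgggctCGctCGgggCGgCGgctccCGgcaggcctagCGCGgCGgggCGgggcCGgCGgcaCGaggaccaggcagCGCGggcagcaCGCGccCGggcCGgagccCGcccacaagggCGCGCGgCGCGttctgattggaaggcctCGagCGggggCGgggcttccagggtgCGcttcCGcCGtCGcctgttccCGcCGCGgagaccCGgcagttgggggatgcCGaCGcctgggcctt
PIWIL1: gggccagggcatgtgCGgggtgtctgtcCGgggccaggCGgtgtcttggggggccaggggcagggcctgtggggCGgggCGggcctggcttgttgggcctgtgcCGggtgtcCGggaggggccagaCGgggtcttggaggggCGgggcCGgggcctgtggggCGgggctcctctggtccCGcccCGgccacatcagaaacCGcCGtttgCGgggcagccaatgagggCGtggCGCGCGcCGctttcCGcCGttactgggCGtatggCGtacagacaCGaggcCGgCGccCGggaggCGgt
The number of CG in these windows was 10 for GTSF1, 27 for MAEL, 17 for TDRD1, 41 for TDRD9 and 30 for PIWIL1. Over all 35116 windows of the same length in the RefSeq table, every start counted, the median was 14 with quartiles of 4 and 28. Over the 15675 of 25548 symbols of the FPKM table that had a window it was 22 with quartiles of 8 and 32, a background that lacks the other symbols. GTSF1, the gene with the highest level after treatment, had the fewest CG of these 5. PIWIL1, listed at 0 in both libraries, had more than 3 of the 4 that were switched on. Whether the number of CG goes with being switched on was not tested, and these few windows cannot show it. The PIWIL1 window stands at the start of 1 of 6 coding transcripts in GENCODE release 29. The TDRD9 window stands at 1 of 3, the GTSF1 window at 1 of 2 and the TDRD1 window at 2 of 3. ASZ1 had 29 CG and MOV10L1 44, while both stayed under 1 FPKM. The only DDX4 window in the table held 1 CG, but it stands at the start of 1 of 10 coding transcripts of DDX4. MAEL has a further start on the same strand, at chr1:166975332-166975631, with 60 CG, which is used by 1 of its 4 coding transcripts against 3 for the start printed. TDRD1 also has a further start on the same strand, at chr10:114179103-114179402, with 21 CG in a window that overlaps the one printed. No window is given here for PIWIL2 and PIWIL4. DNA methylation was not measured in these libraries.

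Each window was also searched on both strands for CACGTG, the E-box, TCCCGC, the core bound by E2F6, and TAACNG, a MYB core. No match of 1 motif overlapped a match of another in the members' windows. CACGTG was found 1 time in the MAEL window, 211 to 206 bases before the start, and 2 times in the TDRD1 window, from 65 and from 45 bases before it. The further TDRD1 window also held 2 matches, from 131 and from 111 bases before its start. No other member's window held CACGTG, and 7.26% of all windows did. The further MAEL window held no match to the E-box or the MYB core. TCCCGC was in the printed windows of MAEL, TDRD9 and PIWIL1 and in those of ASZ1 and MOV10L1, against 26.9% of all windows and 35.2% of those of symbols in the FPKM table. TAACNG was in the MAEL and PIWIL1 windows, against 20.8% of all windows. Of 19 other genes of the pathway with a window, 7 held CACGTG in at least 1: PNLDC1 had 3 copies, STK31 had 2, and TDRD12, SPOCD1, WDR77, MORC1 and TDRD5 (in the further of its starts) had 1 each. Some of these 7 were called higher in the Aza/TSA library, while TDRD5 was called lower and STK31 and MORC1 were not called. These matches are descriptions of letters and do not show binding.

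GTSF1 had the highest level of the set. It encodes a small zinc-finger protein that binds PIWI proteins and in mice speeds their cutting of target RNA. GTSF1 was 44.1 FPKM in the Aza/TSA library and was listed at 0 in the DMSO library. This made up 65.1% of the 67.7 FPKM that the 10 genes summed to in the Aza/TSA library, against a sum of 0.154 FPKM in the DMSO library. Only 70 of the 9984 genes that were under 0.1 FPKM in the DMSO library (0.701%) reached its level. Within the Aza/TSA library, 93.0% of all genes of the table had a lower FPKM than GTSF1. The log2 change of GTSF1 was 5.50.

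MAEL, which encodes Maelstrom, a protein with an HMG-box domain required for transposon silencing in mice and flies, came next. MAEL was 14.5 FPKM in the Aza/TSA library and was listed at 0 in the DMSO library, a log2 change of 3.96. Of the 9984 genes silent in the DMSO library, 131 (1.31%) reached this level. GTSF1 and MAEL together thus held most of the members' signal, and neither had any in the DMSO library.

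The Tudor genes of the set followed. TDRD9 encodes a helicase with a Tudor domain that acts with the nuclear PIWI protein in mice. TDRD9 was 3.54 FPKM in the Aza/TSA library and 0.0131 FPKM in the DMSO library, a log2 change of 2.16. TDRD1, a protein of several Tudor domains that gathers PIWI proteins in granules beside mitochondria, was 2.83 FPKM in the Aza/TSA library and was listed at 0 in the DMSO library, a log2 change of 1.94. These levels were reached by 259 genes (2.59%) and 286 genes (2.86%) of those silent in the DMSO library. In FPKM GTSF1 was far above TDRD9 and TDRD1, whose levels lay close together, and with 1 library the order of such neighbours cannot be tested.

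**Figure D2:**
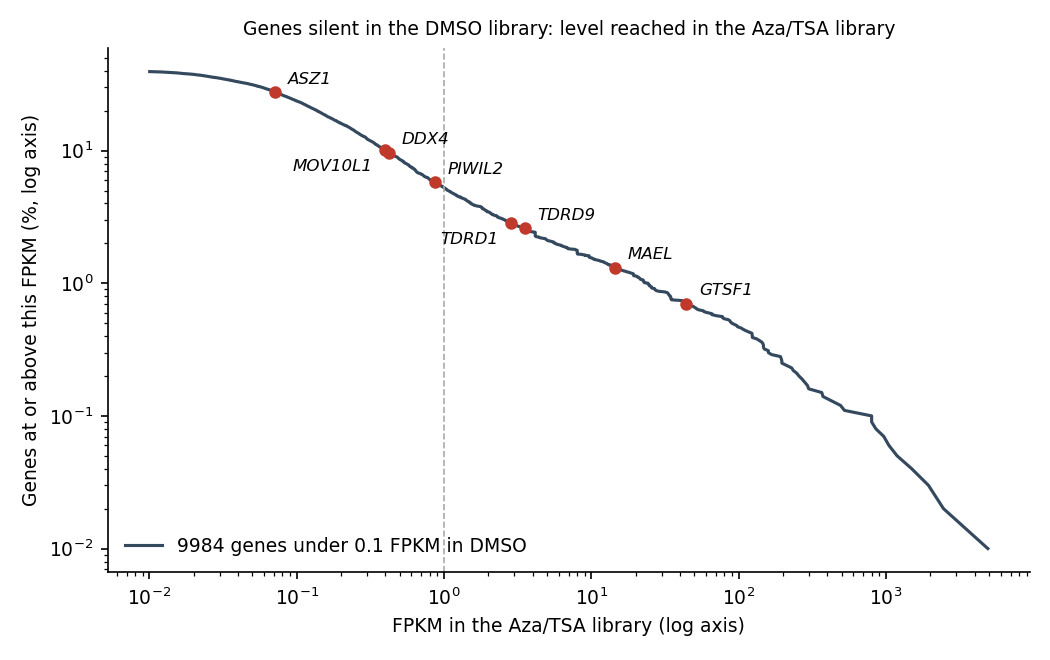
Share of the 9984 genes under 0.1 FPKM in the DMSO library that reached a given FPKM in the Aza/TSA library (line, both axes logarithmic), with the members of the set that were silent in DMSO and above 0 in Aza/TSA as points and a dashed line at 1 FPKM. GTSF1 lies where 0.701% of these genes were at or above its level, ASZ1 where 27.7% were.

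The PIWI genes themselves stayed low. PIWIL4, a nuclear PIWI protein whose mouse counterpart guides DNA methylation of transposons, was 0.934 FPKM in the Aza/TSA library and 0.119 FPKM in the DMSO library, the highest DMSO level of the 10 genes. PIWIL2, whose mouse counterpart makes the first piRNAs of the fetal testis, was 0.867 FPKM in the Aza/TSA library and 0.0217 FPKM in the DMSO library. PIWIL1, which in mice cuts targets in meiotic and later male germ cells, was listed at 0 in both libraries. PIWIL2 and PIWIL4 were thus higher in the Aza/TSA library but below the 1 FPKM needed for a call, and their log2 changes were 0.87 and 0.79. With each library scaled to TPM, both passed 1 and were called, which made 6 of 10 members higher. The columns summed to 516692 FPKM (Aza/TSA) and 491963 FPKM (DMSO), so this scaling raised every value while the cut stayed at 1. Over all genes of the table it called 2681 higher, against 2178 without it.

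DDX4, the DEAD-box helicase known as Vasa and a marker of germ cells, was 0.424 FPKM in the Aza/TSA library and was listed at 0 in the DMSO library. MOV10L1, the helicase that binds piRNA precursors, was 0.398 FPKM in the Aza/TSA library and was listed at 0 in the DMSO library. Levels at or above these were reached by 9.65% and 10.1% of genes silent in the DMSO library. ASZ1, the scaffold on the outer mitochondrial membrane, was 0.0717 FPKM in the Aza/TSA library and was listed at 0 in the DMSO library. Counting every member whatever its level, 9 of 10 had a higher FPKM in the Aza/TSA library and 1 was at 0 in both. Across all listed genes, 46.7% had a higher FPKM there.

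How many fragments stand behind these values was read from the low FPKM of the FaDu table. For 2010 genes above 0 and under 0.3 FPKM in both libraries, the Aza/TSA to DMSO ratio was divided by a step ratio of 0.999855. This step ratio was read from the ratios close to 1 in these same genes. Of the 2010 genes, 45.8% then had a ratio equal, within 0.01%, to that of whole numbers no larger than 6. Other step ratios tried gave a median of 0.0498% of genes and at most 2.99%. The step was read over genes with a single transcript of more than 1000 bases, with 200 bases taken off each length. Where 1 kilobase remained, 1 fragment was worth about 0.0596 FPKM in the Aza/TSA library and 0.0597 FPKM in the DMSO library. On longer transcripts 1 fragment was worth less, in inverse proportion to the remaining length. FPKM there would thus be divided by about 16800000 fragments in each library, which need not be its depth if the authors scaled the libraries. Of the low genes used, 57 of 236 in the Aza/TSA library and 70 of 255 in the DMSO library lay within 5% of the step. On this scale TDRD9 rested on a ratio of 271 fragments in the Aza/TSA library to 1 in the DMSO library. The exact 95% interval of that ratio, for counting error only, was 48.2 to 10743. PIWIL4 fitted a ratio of 47 to 6 fragments, with an interval of 3.34 to 22.4. PIWIL2 fitted a ratio of 40 to 1, with an interval of 6.78 to 1619 if these were the fragments, although its longest coding transcript would give about 71.7 and 1.79. These intervals leave out differences between cultures and between libraries, so they are no test of the treatment. At the length of the longest coding transcript of each gene, ASZ1 rested on about 2.00 fragments in the Aza/TSA library, DDX4 on about 19.1 and MOV10L1 on about 25.1. The ASZ1 value is therefore within what a few fragments give. For PIWIL1 1 fragment would be worth about 0.0161 FPKM, so a level of this size could go unseen.

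The rest of the pathway was followed in a list of 25 other genes, of which 23 were in the table. In the Aza/TSA library 6 of the 23 were at least 2-fold higher and 1 was 2-fold lower, beside the 8.53% and 2.76% of all genes of the table. Their median log2 change was 0.47, and 3 of them were switched on. The 4 widest changes were in TDRD12, PNLDC1, TDRD6 and SPOCD1. These 4 and GPAT2, also called higher, passed the 1 FPKM filter only through the Aza/TSA library. They could thus not have been called lower. TDRD12, a helicase with Tudor domains, was 4.59 FPKM in the Aza/TSA library and was listed at 0 in the DMSO library. PNLDC1, the nuclease that trims piRNA ends, was 3.33 FPKM in the Aza/TSA library and 0.0347 FPKM in the DMSO library. TDRD6, a large Tudor protein of spermatids, was 1.82 FPKM in the Aza/TSA library and 0.0137 FPKM in the DMSO library. SPOCD1, which in mice links the nuclear PIWI protein to DNA methylation, was 1.86 FPKM in the Aza/TSA library and 0.129 FPKM in the DMSO library.

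The Tudor genes and the processing genes did not all differ in the same direction. Of 10 Tudor genes 8 had a higher FPKM in the Aza/TSA library, among them RNF17 at 0.983 FPKM there and listed at 0 in the DMSO library. TDRD5, which binds piRNA precursors in mice, was 4.75 FPKM in the Aza/TSA library and 11.0 FPKM in the DMSO library and was the 1 gene called lower. The Tudor gene STK31 was 1.17 FPKM in the Aza/TSA library and 2.14 FPKM in the DMSO library. Some processing genes were expressed before treatment. HENMT1, the methyltransferase that protects piRNA ends, was 20.8 FPKM in the Aza/TSA library and 16.5 FPKM in the DMSO library. PLD6, the mitochondrial nuclease that cuts precursors, was 3.34 FPKM in the Aza/TSA library and 1.36 FPKM in the DMSO library, short of a call. The mitochondrial gene GPAT2 was called higher, at 2.00 FPKM in the Aza/TSA library and 0.205 FPKM in the DMSO library. The arginine methyltransferase PRMT5, which modifies PIWI proteins and many other proteins, was 111 FPKM in the Aza/TSA library and 56.6 FPKM in the DMSO library, just under 2-fold, and its partner WDR77, at 46.9 FPKM in the Aza/TSA library and 19.02 FPKM in the DMSO library, was called higher. MYBL1, the transcription factor that drives many piRNA genes in mouse spermatocytes, was 1.60 FPKM in the Aza/TSA library and 2.76 FPKM in the DMSO library.

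**Figure D3:**
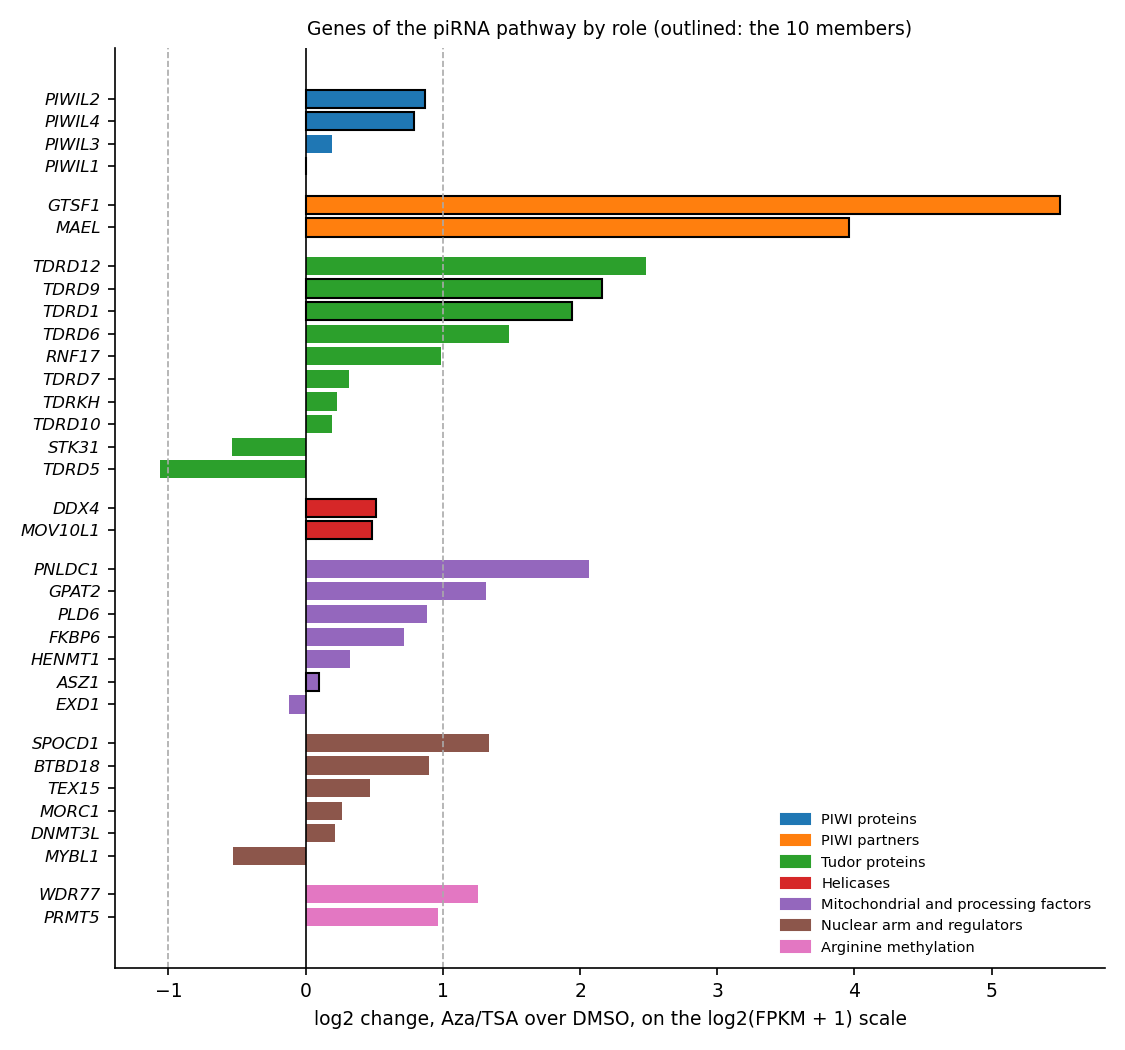
log2 change (Aza/TSA over DMSO, on the log2(FPKM + 1) scale) of 33 genes of the piRNA pathway found in the table, coloured by role, with the 10 members outlined and dashed lines at 2-fold. GTSF1 and MAEL reached 5.50 and 3.96, the PIWI genes stayed under 1, and TDRD5 was the 1 gene past 2-fold in the lower direction.

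The PIWI genes can be set beside the AGO genes, the Argonautes that serve microRNAs in every tissue. The 4 PIWI genes, PIWIL3 included (0.144 FPKM in the Aza/TSA library, listed at 0 in the DMSO library), summed to 1.95 FPKM in the Aza/TSA library and 0.141 FPKM in the DMSO library. The 4 AGO genes summed to 20.8 FPKM in the Aza/TSA library and 14.4 FPKM in the DMSO library. AGO2, the slicing Argonaute, was 10.7 FPKM in the Aza/TSA library and 5.80 FPKM in the DMSO library, and AGO1 was 4.17 FPKM in the Aza/TSA library and 2.80 FPKM in the DMSO library. After treatment the PIWI sum was still below the level of each of the 3 highest AGO genes. Of 13 genes of the microRNA machinery, 1 was at least 2-fold higher in the Aza/TSA library and none lower, beside 16.1% and 5.21% of the 13558 genes that count as measured (1 FPKM or more in the higher of the libraries). That gene was TARBP2, a partner of Dicer, at 15.5 FPKM in the Aza/TSA library and 5.64 FPKM in the DMSO library. DICER1 was 18.8 FPKM in the Aza/TSA library and 25.3 FPKM in the DMSO library.

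**Figure D4:**
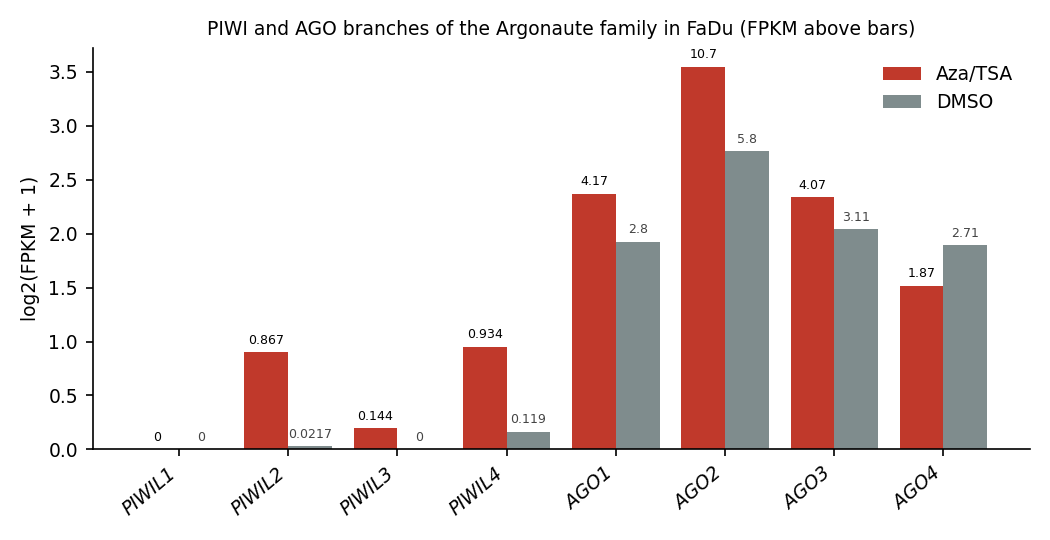
Levels of the PIWI and AGO genes in the Aza/TSA library (red) and the DMSO library (grey), as log2(FPKM + 1) with FPKM above the bars, 1 library per group. No PIWI gene reached 1 FPKM, while each AGO gene was between 1.87 and 10.7 FPKM in the Aza/TSA library.

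Somatic relatives of the members were mostly expressed in both libraries. Of 11 such genes 10 were measured, and none was 2-fold higher or lower, beside 16.1% and 5.21% of all measured genes. MOV10, the somatic relative of MOV10L1, was 24.6 FPKM in the Aza/TSA library and 14.7 FPKM in the DMSO library. The Tudor gene TDRD3 was 5.55 FPKM in the Aza/TSA library and 9.84 FPKM in the DMSO library. SMN1 and SMN2, near-identical Tudor genes whose reads cannot be told apart, were 37.0 and 37.2 FPKM in the Aza/TSA library and 53.4 and 54.5 FPKM in the DMSO library. DDX3X, a relative of DDX4, was 59.7 FPKM in the Aza/TSA library and 75.2 FPKM in the DMSO library, and GTSF1L was listed at 0 in both.

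Transposable elements, the targets of the pathway, have no rows of their own in the table. A list of 9 genes derived from retroelements was read, which does not measure the elements. In the Aza/TSA library 2 of the 9 were at least 2-fold higher and none lower, beside 8.53% and 2.76% of all genes of the table. All 9 had a higher FPKM, beside 46.7% of all genes. Only 5 of the 9 were measured, and some differed little, as ERVV-1 did with 0.0521 FPKM in the Aza/TSA library and 0.0260 FPKM in the DMSO library. The 2 called genes, L1TD1 and ERVW-1, passed the 1 FPKM filter only through the Aza/TSA library. L1TD1, an RNA-binding protein derived from LINE-1, was 2.71 FPKM in the Aza/TSA library and was listed at 0 in the DMSO library. ERVW-1, which encodes syncytin-1, the envelope protein of an endogenous retrovirus, was 2.25 FPKM in the Aza/TSA library and 0.128 FPKM in the DMSO library. PEG10 was 10.8 FPKM in the Aza/TSA library and 8.08 FPKM in the DMSO library. ERVMER34-1 was 1.34 FPKM in the Aza/TSA library and 0.940 FPKM in the DMSO library. Whether these levels bear on piRNA activity was not tested.

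Genes beside the members were read by position in GENCODE release 29. On each side this was the nearest protein-coding gene that was listed in the FPKM table and did not overlap the member. Coding genes without a listed symbol were passed over, so a nearer gene can be missing. Of the 20 flanking genes 9 were measured, 1 was at least 2-fold higher and none was switched on, beside 8.53% and 2.05% of all genes. That gene was ITGA5, 36.5 kb from GTSF1, at 30.3 FPKM in the Aza/TSA library and 6.34 FPKM in the DMSO library. On its other side NCKAP1L was 0.0484 FPKM in the Aza/TSA library and was listed at 0 in the DMSO library. ILDR2, 0.1 kb from MAEL, was 0.180 FPKM in the Aza/TSA library and 0.0526 FPKM in the DMSO library, and GPA33 on the other side was listed at 0 in both. The genes beside TDRD1, CCDC186 and VWA2, were 6.40 and 0.347 FPKM in the Aza/TSA library and 7.38 and 0.0869 FPKM in the DMSO library. PPP1R13B and ASPG, 80.9 and 33.0 kb from TDRD9, were 6.63 and 0.438 FPKM in the Aza/TSA library and 5.93 and 0.0674 FPKM in the DMSO library. GTSF1 has antisense transcripts, and TDRD9 overlaps RD3L on the other strand. DDX4 overlaps SLC38A9 on the other strand, at 0.997 FPKM in the Aza/TSA library and 2.63 FPKM in the DMSO library, and PIWIL4 overlaps FUT4 on its own strand, at 2.04 FPKM in the Aza/TSA library and 0.815 FPKM in the DMSO library. How the authors split such reads is not given in the sources used here, so the low PIWIL4 value is uncertain.

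The genes nearest in level over these 2 libraries were, for GTSF1, MIR637, PNMA5 and SNORA38B. For MAEL they were SNORA77, PSORS1C2 and H2AFB2, for TDRD1 KRBOX1, GAGE1 and OOEP, and for TDRD9 MAGEA12, KRTAP2-2 and COL14A1. With 2 libraries this likeness says no more than that the FPKM were close, as with 44.8 FPKM in the Aza/TSA library for PNMA5, which was listed at 0 in the DMSO library.

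Markers of cell types were read beside these results. Of 10 squamous epithelial markers all 10 were measured, as the label of the line has it, and KRT17 was 1341 FPKM in the Aza/TSA library and 1164 FPKM in the DMSO library. Of the 10, 3 were 2-fold lower in the Aza/TSA library, DSG3, TP63 and KRT5, and KRT14 was 2-fold higher. Over all measured genes 5.21% were called lower and 16.1% higher. Of 14 germ-cell markers 2 were measured and higher, DAZL and SYCP3, beside 8.53% of all genes of the table. DAZL was 79.6 FPKM in the Aza/TSA library and was listed at 0 in the DMSO library. SYCP3 was 13.9 FPKM in the Aza/TSA library and 0.152 FPKM in the DMSO library. Both passed the 1 FPKM filter only through the Aza/TSA library, so they could not have been called lower. The sum of these 14 markers was 94.9 FPKM in the Aza/TSA library and 0.835 FPKM in the DMSO library, and 8 of them, among them the protamines PRM1 and PRM2 of sperm, were listed at 0 in both. None of 8 markers of somatic testis cells was measured, and their sum was 1.60 FPKM in the Aza/TSA library and 0.925 FPKM in the DMSO library. Of 6 leukocyte markers CD14 alone was measured, at 4.59 FPKM in the Aza/TSA library and 1.62 FPKM in the DMSO library, and the sum was 5.09 FPKM in the Aza/TSA library and 1.78 FPKM in the DMSO library, with CD3E listed at 0 in the DMSO library. The part of these genes in the results above was not tested.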

How the data were processed

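The deposited file holds FPKM, per the file headers, with gene symbols as rows and the 4 libraries, 1 per group, as columns. TopHat 1.3.2, Cufflinks 2.0.2 and hg19 are named in the submitters' processing notes. Annotation, filtering and between-library scaling were not given in the sources used here. The columns were compared first. All 28 of 28 housekeeping genes were at 10 FPKM or more in FaDu, where UMSCC47 had 4 (Aza/TSA) and 8 (DMSO), and the Spearman correlation across genes was 0.909 between the FaDu columns and 0.110 to 0.124 for every pair with a UMSCC47 column, so those columns were not used. The FaDu columns summed to 516692 FPKM (Aza/TSA) and 491963 FPKM (DMSO). The 45 repeated rows were summed by symbol. The change was log2((Aza/TSA FPKM + 1)/(DMSO FPKM + 1)), called at 2-fold for genes at 1 FPKM or more in either library. FPKM depth is known only through the single-fragment steps, which were searched after the values had been seen. With 1 library per group no test was run. The members and gene lists were chosen with earlier results of these data known. Genes named are the members, up to 4 measured genes with the widest change in each list, the 3 nearest in level to each measured member, and flanking genes by position; others were named after their values were seen. XIST was left out of the nearest genes. 1 leukocyte marker of the planned list is not reported here. Promoters came from RefSeq for 8 of the 10 members. GC content and lengths came from GENCODE release 29 transcripts. Pseudocounts of 0.1 and 5, no filter, a filter at 5 FPKM, scaling to TPM, scaling to a median change of 0, the highest row per symbol, a GC correction by lowess with a fraction of 0.3 and a switched-on level of 0.5 FPKM were tried. The 2-fold calls and the step ratio were tried on simulated fragments. The simulation used the same step in both libraries, which fixed the step ratio in advance. It did not test the bases taken off each length, the fragment totals or the whole-number ratios. Python 3.11.15, pandas 2.3.3, scipy 1.17.1 and statsmodels 0.14.6 were used.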

Additional observations from a re-analysis of the deposited data

How the results depend on the processing

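Of 50 alternatives tried on the counts and the median, 40 kept the value within 1.5 times or on its side of 2-fold. With a pseudocount of 5, the genes at least 2-fold higher numbered 2 of the members (GTSF1 and MAEL), 1 of the other piRNA pathway genes, 0 of the microRNA machinery and 0 of the retroelement-derived genes. With a filter at 5 FPKM they numbered 2 of the members, 1 of the other pathway genes and 0 of the retroelement-derived genes, since fewer genes were then tested. The GC correction gave 0 of the microRNA machinery. The median log2 change of the members was 2.69 with a pseudocount of 0.1, 1.27 with TPM scaling and 0.22 with a pseudocount of 5. Where the cause is not named it was not tested. Over all genes, 2178 were called higher and 706 lower, where the GC correction called 930 higher and 534 lower. A pseudocount of 5 called 893 higher and 253 lower, that of 0.1 called 2948 higher and 1182 lower, and TPM scaling called 2681 higher and 1152 lower. The log2 change of MAEL ranged from 1.97 to 7.19 and that of GTSF1 from 3.30 to 8.79 over the settings, while TDRD9 and TDRD1 were under 2-fold with a pseudocount of 5, at 0.77 and 0.65. Promoter letters were to be set against genes that were switched on, but only 266 of these 524 genes had a promoter in the table, under the 80% needed, so that comparison is void. No replicate could be left out. No paired analysis was possible because each group has 1 library. FPKM at or under a few fragments, as for ASZ1, carry little information.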
